A study of Mus musculus with 8 samples.

Results

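The 8 genes described here are Pparg, Ppard, Dgat1, Dgat2, Plin2, Plin3, Pnpla2 and Lipe, which cover PPAR receptors and the making, coating and breakdown of lipid droplets. They were taken by gene symbol from a given list, not by a threshold on their measured values. That list was chosen with earlier results of these data known. The genes are 8 of the 53465 gene IDs in each count file. All 8 were among the 14443 genes with enough reads to test. RNA was sequenced from regulatory T cells (Tregs) made in culture from wild-type C57BL/6 mouse cells, in 4 control libraries and 4 libraries exposed to 50 µM BMS309403, an inhibitor of fatty acid-binding proteins aimed here at FABP5.

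In both groups, CD4+ T cells selected from spleen and peripheral lymph nodes (the tissue label names spleen alone) were polarized on plates coated with anti-CD3 at 5 µg/mL. Anti-CD28 was used at 0.5 µg/mL, IL-2 at 100 U/mL and TGF-β at 5 ng/mL, with IL-4, IFN-γ and IL-12 each blocked by antibody at 10 µg/mL. The cultures were divided after 72 h, with the compound present or absent from then on. The labels give no age of the mice, no vehicle, no duration of exposure and no sort for Foxp3 after polarization. What blocking FABP5 does cannot be told apart here from further actions of BMS309403, or from those of any solvent.

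PPARs are nuclear receptors that bind fatty acids and related lipids, pair with retinoid X receptors on DNA and control genes of lipid uptake, storage and oxidation. PPARγ drives fat cell differentiation and is known for its role in Tregs that live in adipose tissue, while PPARδ is expressed widely. Lipid droplets store triglyceride and sterol esters in a core that perilipins coat, and lipases release the fatty acids again when cells draw on them. Fatty acid-binding proteins carry fatty acids between these compartments, including to PPARs in the nucleus.

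Library totals lay between 32923433 and 44644485 counts, and levels are given as CPM (counts per 1e6 counts of the library, with TMM-adjusted library sizes). Markers of the labelled cell type were abundant: the 6 T cell markers summed to 2389 to 2542 CPM in control and 2086 to 2257 CPM in treated libraries, and the 8 Treg markers to 4533 to 5213 and 5910 to 6273 CPM. Neither sum overlapped between the groups. The Treg markers did not all move alike: 6 were higher in every treated library than in any control, and Ctla4 overlapped. Nrp1 was lower in every treated library, going from 154 ± 7.09 to 81.4 ± 5.62 CPM (SD, n = 4). Il2ra had the highest level in that list, at 2562 ± 300 and 3412 ± 205 CPM. The part of these marker shifts in the changes described here was not tested. Markers of fat cells, which express many of these genes strongly, were nearly absent. Their 8 genes together stayed at or below 0.255 CPM in every library, and Lep, Cfd and Cidec had 0 counts throughout. The libraries are bulk samples, so fewer cells that express a gene and less RNA per cell cannot be told apart.

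Treatment split the 8 genes. Pparg fell 2.89-fold and Dgat2 rose 2.36-fold, while the 3 other calls, a fall of Plin3 and rises of Pnpla2 and Lipe, were all under 1.2-fold. Ppard, Plin2 and Dgat1 were not called. Thus 3 of 8 were called higher and 2 lower by edgeR's quasi-likelihood test at an adjusted p under 0.05. In the same fit 36.8% of all tested genes were called, 18.7% higher and 18.1% lower, so the share called among the 8 says little about them. Pparg and Dgat2 were among the genes with large changes: their absolute log2 fold changes exceeded those of 98.4% and 97.4% of tested genes. The groups did not overlap for 4 of the 8 genes, as for 33.8% of tested genes. The median log2 fold change of the 8 was 0.07, and that of all tested genes 0.01.

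**Figure D1:**
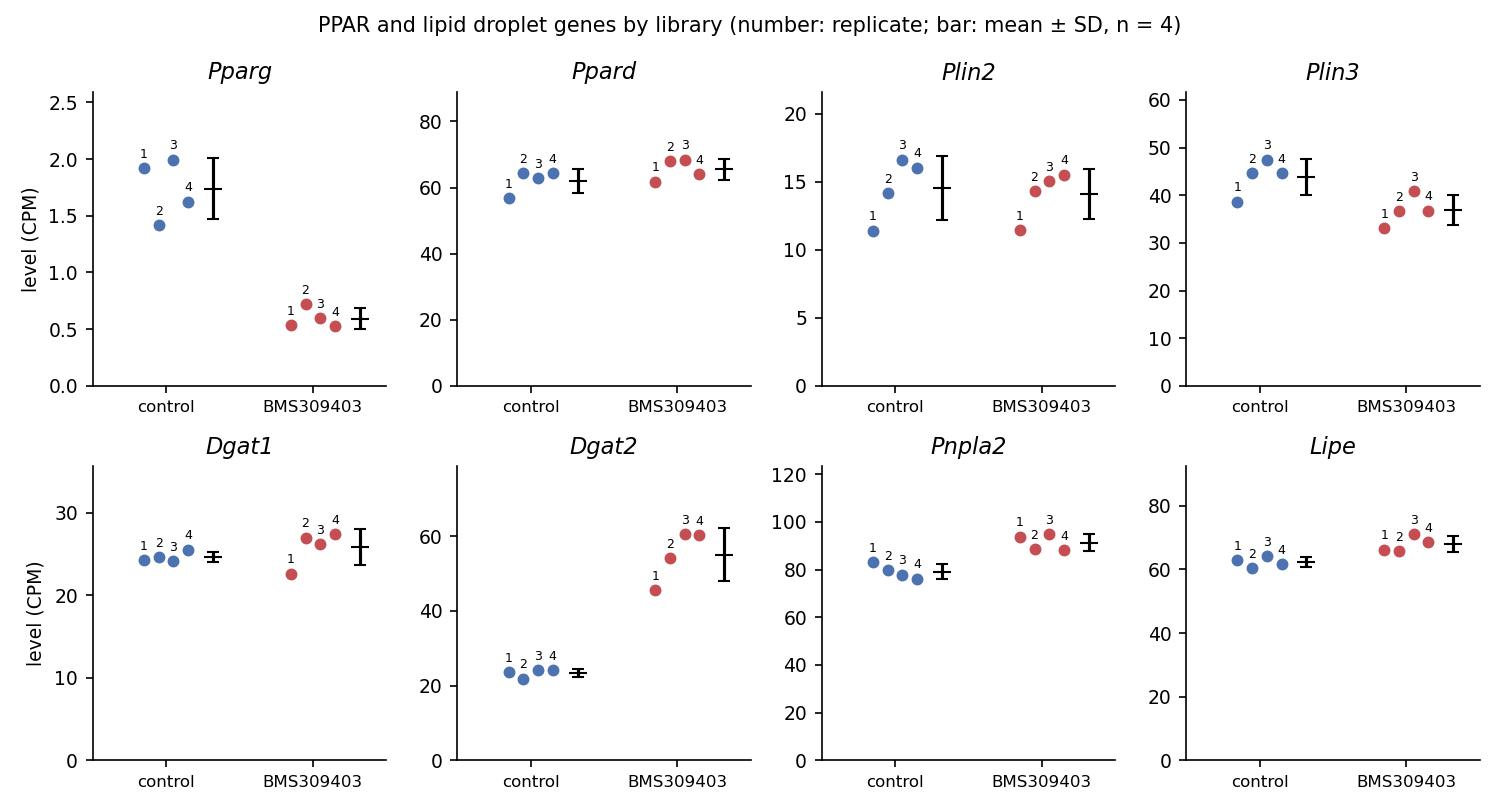
Level in CPM (vertical axes, from 0) of each of the 8 genes in the 4 control and 4 treated libraries, with replicate numbers; black bars give the mean ± SD of 4 libraries. The groups lie apart for Pparg, Dgat2, Pnpla2 and Lipe and overlap for Ppard, Plin2, Plin3 and Dgat1.

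**Figure D2:**
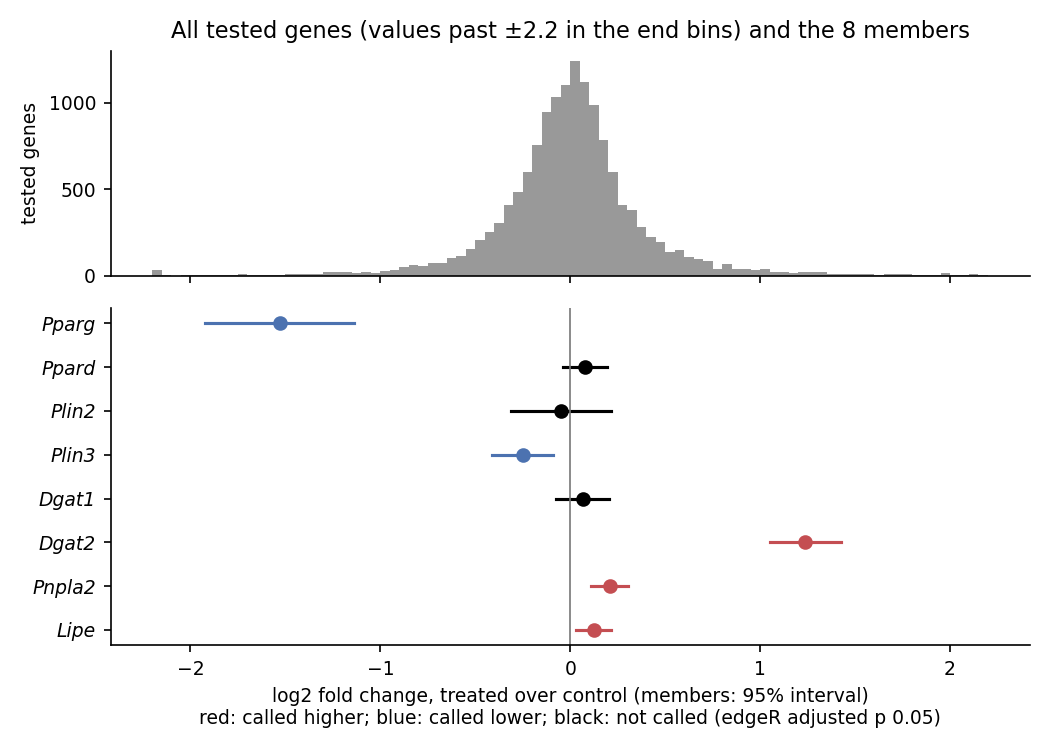
Top, the number of tested genes (14443 in all) by log2 fold change of treated over control; bottom, the log2 fold change of each of the 8 genes with its 95% interval. The intervals of Pparg and Dgat2 lie far out on either side of the bulk of genes, while those of Ppard, Plin2 and Dgat1 include 0.

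Pparg (ENSMUSG00000000440, chromosome 6, 115360951 to 115490399 on the plus strand of GRCm38), which encodes PPARγ, was the lowest of the 8 in level. The control libraries held 62, 63, 67 and 65 reads of it, or 1.92, 1.42, 1.99 and 1.62 CPM for replicates 1 to 4. In treated libraries there were 21, 31, 23 and 22 reads, or 0.534, 0.719, 0.595 and 0.529 CPM. Every treated library lay below every control library; replicate 2 was the lowest control and the highest treated library. The mean went from 1.74 ± 0.268 to 0.594 ± 0.0885 CPM (SD, n = 4), giving a log2 change of -1.53 (SE 0.18, 95% interval -1.92 to -1.14, edgeR adjusted p = 4.71e-05). The call held under all 15 alternative settings, with log2 fold changes between -1.64 and -1.43. The fall rests on 257 control and 97 treated reads in all, which is why its interval is the widest of the 8.

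Macrophages also express Pparg, so their markers are given beside it. The 9 macrophage and monocyte markers summed to 4.11 to 5.98 CPM in control and 3.20 to 6.03 CPM in treated libraries, and the groups overlapped. Of the 3 tested markers, Cd68 and Lyz2 were not called. The third, Adgre1, named after its values were seen, fell from 0.565 ± 0.182 to 0.137 ± 0.0486 CPM (SD, n = 4). Its part in the fall of Pparg was not tested. The 6 untested markers were low: Csf1r had 17 control and 32 treated reads, Cd14 had 21 and 44, Marco, Mrc1 and Fcgr1 had at most 8 in either group, and Vsig4 had 0.

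Counts per gene do not tell the alternative starts of Pparg apart. RefSeq gives 3 of them on GRCm38.p6, and the most downstream is that of the longer protein form typical of fat cells. The hexamer AGGTCA, the core recognized by PPARs and other nuclear receptors, was searched on both strands in the 250 bases upstream of each start, since Pparg changed most and PPARs are the receptors of this group. It was present at 2 of these 3 starts and upstream of Plin2, a known PPAR target, that is in 3 of 9 windows of the 6 genes with an entry. Of all 32851 RefSeq windows of that length, 14.0% hold it. The full direct repeat AGGTCANAGGTCA was in 0 of the 9 windows and in 0.0335% of all windows. Dgat1 and Dgat2 have no entry. The stretches of 30 bases around each match are shown 5′ to 3′ on the strand of the gene, with the hexamer, or TGACCT where it lies on the other strand, in capitals.
Pparg, upstream start, chr6:115361104-115361133, plus strand: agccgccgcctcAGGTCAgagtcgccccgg
Pparg, middle start, chr6:115362319-115362348, plus strand: ttttatataagggacgcgaggAGGTCAaga
Plin2, chr4:86670260-86670289, minus strand: tttcaggaccccTGACCTaagtcagacagc
Counted from the start site, the matches begin at -28 and -9 for Pparg and at -218 for Plin2. Both Pparg stretches lie within exons of longer GENCODE transcripts, while the Plin2 stretch overlaps no exon of Plin2. A match of these letters is a description of the sequence only.

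Upstream of the third Pparg start, whose window overlaps no GENCODE exon of the gene, neither motif was found, and the 250 bases are shown because gene counts do not say at which start the fall took place.
Pparg, downstream start, chr6:115421816-115422065, plus strand: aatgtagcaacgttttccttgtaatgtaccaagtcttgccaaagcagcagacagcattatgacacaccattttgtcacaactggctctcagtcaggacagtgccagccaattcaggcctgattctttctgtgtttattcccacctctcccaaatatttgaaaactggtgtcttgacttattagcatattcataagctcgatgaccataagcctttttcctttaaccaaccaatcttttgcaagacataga

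Ppard (chromosome 17, 28232700 to 28301474, plus strand), which encodes PPARδ, was not called. Control libraries held 56.8, 64.4, 62.8 and 64.2 CPM and treated libraries 61.8, 68.0, 68.4 and 64.0 CPM. Replicate 1 was lowest in each group and the groups overlapped. The means were 62.1 ± 3.59 and 65.5 ± 3.19 CPM (SD, n = 4), with a log2 fold change of 0.08 (SE 0.05, 95% interval -0.04 to 0.19, adjusted p = 0.27). Falling short of the threshold does not show that Ppard was constant. The third receptor, Ppara, was too low to test, with 2 reads per group.

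Read per exon length within a library, Pparg stood at 0.0861, 0.0559, 0.0807 and 0.0642 of the level of Ppard in control replicates 1 to 4. In treated libraries it stood at 0.0220, 0.0269, 0.0221 and 0.0210. Both genes of this ratio come from the same library, so scaling between libraries cancels. Its log2 value went from -3.82 ± 0.289 to -5.45 ± 0.158 (SD, n = 4), a difference of -1.62, and the groups did not overlap. Ppard was thus the more abundant PPAR message of the pair in every library.

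**Figure D3:**
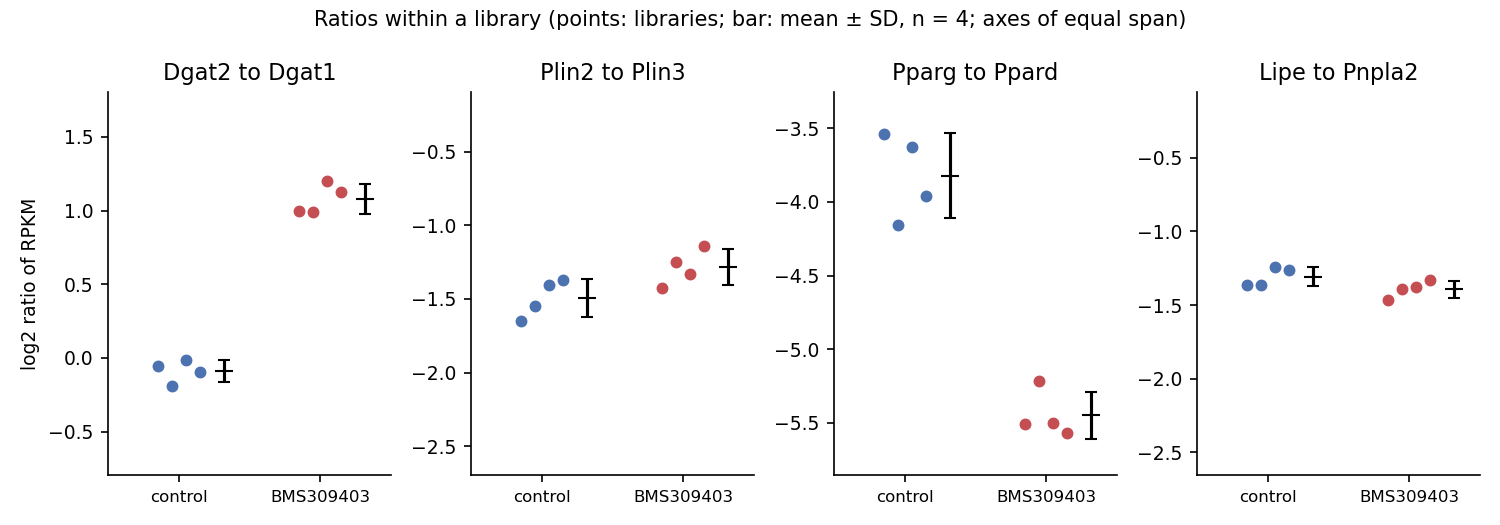
Log2 ratio of RPKM (CPM per kilobase of exon) of paired genes within each library (vertical axes, all of the same span), for control and treated libraries; black bars give the mean ± SD of 4. The ratios of Dgat2 to Dgat1 and of Pparg to Ppard part the groups, while those of Plin2 to Plin3 and Lipe to Pnpla2 overlap.

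Around the receptors, a list of 18 partners and co-regulators held 15 tested genes, of which 5 were called higher and 3 lower, where 18.7% of all tested genes were called higher and 18.1% lower. Their median log2 fold change was -0.03, against 0.01 for all tested genes. Rxra, a retinoid X receptor that pairs with PPARs, rose 1.75-fold from 25.6 ± 1.99 to 44.8 ± 4.13 CPM (SD, n = 4; adjusted p = 6.36e-06). The more abundant retinoid X receptor message, Rxrb, was called lower, close to the threshold. It was 1.075-fold lower, at 106.4 ± 2.89 and 98.96 ± 2.05 CPM (SD, n = 4; edgeR adjusted p = 0.0466), with every treated library below every control. Rxrg had 0 reads. Nrip1, a co-repressor of nuclear receptors, fell 2.87-fold from 137 ± 10.5 to 47.9 ± 1.83 CPM (adjusted p = 5.42e-09), a change close in size to that of Pparg at far higher read numbers. Crebbp, an acetyltransferase and co-activator, was 1.22-fold higher, and Tbl1xr1, a subunit of the NCoR co-repressor complex, 1.20-fold lower. The rises in this list numbered 3 without control replicate 2 or control replicate 3 and 2 without treated replicate 2. Those fits called 2078 of 14631, 2079 of 14626 and 2126 of 14592 tested genes higher, against 2694 of 14443 in the main fit. With the replicate number as a block, 6 of the list were higher and 5 lower. That fit called 52.4% of the 14443 tested genes, 3845 higher and 3728 lower. Fabp5, which encodes the carrier at which the compound was aimed here, stood at 178 ± 23.7 and 153 ± 18.3 CPM (SD, n = 4; adjusted p = 0.0934, and 1.29e-05 with the replicate block).

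Among 39 known PPAR target genes, 15 were too low to test, and 4 of the other 24 were called higher and 4 lower (18.7% and 18.1% of all tested genes). The median log2 fold change was -0.03. Cd36, a fatty acid transporter, went from 0.896 ± 0.429 to 4.63 ± 0.896 CPM (SD, n = 4), a 5.22-fold rise (adjusted p = 2.35e-05). Acot2, a mitochondrial acyl-CoA thioesterase, rose 2.00-fold, and Acsl1, which activates long-chain fatty acids, rose 1.45-fold. Ucp2, a carrier of the inner mitochondrial membrane, fell 1.48-fold from 918 ± 49.1 to 621 ± 63.6 CPM. The other calls were smaller: Acadl was 1.225-fold higher, and Acaa2, Hadhb and Acadm were 1.341-fold, 1.206-fold and 1.2-fold lower. With the replicate block, 5 were higher and 9 lower, beside 3845 and 3728 of the 14443 tested genes (52.4% called). Angptl4, a widely used readout of PPAR activity that also responds to other signals, stood at 9.65 ± 1.46 and 7.97 ± 0.679 CPM (SD, n = 4; adjusted p = 0.0716, and 0.00554 with the block). Pdk4, Lpl and Fabp4, targets in other tissues, had too few reads to test.

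Dgat1 and Dgat2 encode unrelated enzymes that carry out the same last step of triglyceride synthesis, joining a fatty acid to diacylglycerol. Dgat2 (ENSMUSG00000030747, chromosome 7, 99153658 to 99182719, minus strand) was the member with the largest rise. Control libraries held 23.5, 21.8, 24.1 and 24.1 CPM, and treated libraries 45.5, 54.1, 60.6 and 60.3 CPM. Treated replicate 1 was the lowest of its group and still far above the highest control library. The mean went from 23.4 ± 1.09 to 55.1 ± 7.07 CPM (SD, n = 4), giving a log2 change of 1.24 (SE 0.08, 95% interval 1.05 to 1.42, adjusted p = 5.59e-07). It was called under all 15 alternatives, with log2 fold changes between 1.19 and 1.32.

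Dgat1 (chromosome 15, 76502015 to 76511953, minus strand) did not pass the threshold. It stood at 24.2, 24.6, 24.2 and 25.5 CPM in control and at 22.6, 27.0, 26.2 and 27.4 CPM in treated libraries. Treated replicate 1 lay below all control libraries and the 3 others above them. The log2 fold change was 0.07 (SE 0.06, 95% interval -0.07 to 0.21, adjusted p = 0.441), and without treated replicate 1 it was 0.12 (adjusted p = 0.0836).

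Per exon length the 2 enzymes' messages were nearly level in control libraries and parted under treatment. The ratio of Dgat2 to Dgat1 was 0.962, 0.877, 0.990 and 0.935 in control and 2.00, 1.99, 2.29 and 2.18 in treated libraries. Its log2 value rose by 1.17, from -0.09 ± 0.075 to 1.08 ± 0.102 (SD, n = 4), and no treated library overlapped a control library.

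Upstream of the DGAT step and in sterol ester synthesis, 14 of 19 listed genes were tested, and 3 were called higher and 3 lower (18.7% and 18.1% of all tested genes), with a median log2 fold change of 0.00. Soat2, which esterifies cholesterol for storage, went from 5.52 ± 1.21 to 18.8 ± 4.84 CPM (SD, n = 4), a 3.38-fold rise (adjusted p = 3.14e-05). Its relative Soat1 fell 1.28-fold from 77.0 ± 2.58 to 60.3 ± 2.77 CPM. Lpin1, the phosphatidate phosphatase that supplies diacylglycerol, fell 1.39-fold, and Acsl3, an acyl-CoA synthetase of nascent droplets, fell 1.35-fold. Gpam, which starts glycerolipid synthesis in mitochondria, was not called (log2 fold change -0.02, 95% interval -0.15 to 0.11). With the replicate block, 4 genes of this list were higher and 5 lower, beside 3845 and 3728 of the 14443 tested genes (52.4% called).

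Perilipins shield the droplet from lipases. Plin2 (chromosome 4, 86648386 to 86670060, minus strand) encodes the perilipin that is stable only on droplets and whose message often follows fatty acid load. Control libraries held 11.4, 14.1, 16.6 and 16.0 CPM and treated libraries 11.4, 14.3, 15.1 and 15.5 CPM. The groups covered nearly the same range, and replicate 1 was lowest in each. The means were 14.5 ± 2.34 and 14.1 ± 1.82 CPM (SD, n = 4), with a log2 fold change of -0.05 (SE 0.12, 95% interval -0.31 to 0.22, adjusted p = 0.787). Its sign turned when control replicate 3, control replicate 4 or treated replicate 1 was left out (0.02, 0.00 and 0.04), and it was called under none of the 15 alternatives.

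Plin3 (chromosome 17, 56277476 to 56292873, minus strand) encodes a perilipin that moves from the cytosol onto new droplets. It stood at 38.7, 44.6, 47.4 and 44.6 CPM in control and at 33.1, 36.7, 40.9 and 36.8 CPM in treated libraries. The groups overlapped, since treated replicate 3 lay above control replicate 1, but the treated library was lower in all 4 same-numbered pairs. The mean went from 43.8 ± 3.70 to 36.9 ± 3.16 CPM (SD, n = 4), giving a log2 change of -0.25 (SE 0.07, 95% interval -0.41 to -0.09, adjusted p = 0.0191). Leaving out control replicate 2 or control replicate 3 ended the call (adjusted p = 0.0511 and 0.0661). The ratio of Plin2 to Plin3 was higher by 0.21 on the log2 scale under treatment, and its groups overlapped.

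Of 22 other genes of droplet coats and assembly, 14 were tested, and 6 were called higher and 1 lower, beside 18.7% and 18.1% of all tested genes. Their median log2 fold change was 0.12, against 0.01 for all tested genes. Hilpda, a hypoxia-inducible inhibitor of the lipase encoded by Pnpla2, fell 1.39-fold from 38.4 ± 3.15 to 27.6 ± 3.59 CPM (SD, n = 4; adjusted p = 0.00155). Fitm2, needed for droplets to bud from the endoplasmic reticulum, was 1.25-fold higher at an adjusted p = 0.0274, which rose past the threshold without control replicate 2 (0.0905), control replicate 4 (0.0709), treated replicate 1 (0.0695) or treated replicate 2 (0.0571). Vps13a, a lipid transfer protein, was 1.23-fold higher, and Pcyt1a, which controls phosphatidylcholine synthesis for the droplet surface, 1.16-fold higher. The rises numbered 2 without control replicate 2 and 3 without treated replicate 2. Those fits called 2078 of 14631 and 2126 of 14592 tested genes higher, against 2694 of 14443 in the main fit. With the replicate block 7 were higher and 2 lower, beside 3845 and 3728 of the 14443 tested genes (52.4% called). The perilipins of fat and muscle cells were nearly silent: Plin4 had 0 reads in all libraries, and Plin1 and Plin5 were too low to test.

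Lipolysis proceeds in steps. The lipase ATGL, encoded by Pnpla2, opens triglyceride, and hormone-sensitive lipase, encoded by Lipe, acts mainly on the diacylglycerol that results. Pnpla2 (ENSMUSG00000025509, chromosome 7, 141455198 to 141460743, plus strand) had the highest level per exon length of the 8 in both groups. It stood at 83.2, 79.6, 77.8 and 76.1 CPM in control and at 93.8, 88.5, 94.9 and 88.3 CPM in treated libraries, and all treated libraries lay above all controls. The mean went from 79.2 ± 3.02 to 91.4 ± 3.48 CPM (SD, n = 4), giving a log2 change of 0.21 (SE 0.04, 95% interval 0.11 to 0.30, adjusted p = 0.00303). The call held under all 15 alternatives.

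Lipe (ENSMUSG00000003123, chromosome 7, 25379527 to 25398710, minus strand) stood at 62.9, 60.4, 64.2 and 61.7 CPM in control and at 66.1, 65.7, 71.1 and 68.5 CPM in treated libraries. The treated libraries lay above all controls, and the closest libraries of the groups were control replicate 3 and treated replicate 2. The mean went from 62.3 ± 1.60 to 67.9 ± 2.51 CPM (SD, n = 4), giving a log2 change of 0.12 (SE 0.04, 95% interval 0.03 to 0.21, adjusted p = 0.0365). This call was close to the threshold. It was lost (adjusted p in brackets) without control replicate 2 (0.116), control replicate 3 (0.0538), control replicate 4 (0.0682), treated replicate 3 (0.102) or treated replicate 4 (0.0865), and without a filter on low counts (0.0838). An antisense gene, 4732471J01Rik, shares 918 exonic bases with Lipe and had 359 reads in all libraries together, against 9348 control and 11031 treated reads of Lipe. The sources used here do not say whether counting used the strand. The ratio of Lipe to Pnpla2 differed by -0.08 on the log2 scale, and its groups overlapped.

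Of 13 other genes of lipolysis and lipophagy, 9 were tested, and 1 was called higher and 2 lower (18.7% and 18.1% of all tested genes), with a median log2 fold change of 0.00. Ddhd2, a lipase that can hydrolyse triglyceride, rose 1.26-fold. Prkacb and Prkaca, catalytic subunits of the kinase that activates hormone-sensitive lipase, were 1.26-fold and 1.11-fold lower. Prkaca (adjusted p = 0.0311) was not called without control replicate 3 (0.0980), control replicate 4 (0.0699), treated replicate 2 (0.0982) or treated replicate 4 (0.0807), which each left 1 gene of the list lower. Abhd5, the co-activator of ATGL, was not called (log2 fold change 0.10, 95% interval -0.09 to 0.28, adjusted p = 0.395). G0s2, an ATGL inhibitor, and Mgll, which completes lipolysis, were too low to test.

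**Figure D4:**
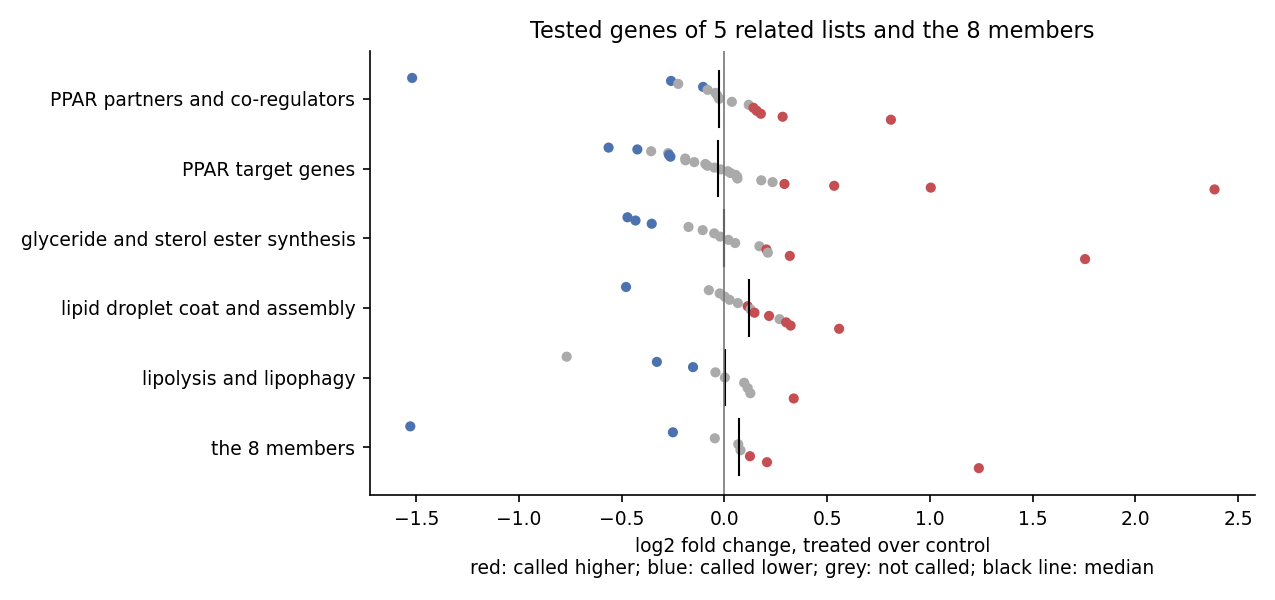
Log2 fold change (horizontal axis) of every tested gene of the 5 related lists and of the 8 members, with called genes in red or blue and the median as a black line. Calls lie on both sides of 0 in each list, and the medians lie between -0.03 and 0.12.

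Over the 5 lists together, 76 of 108 genes were tested, and 19 were called higher and 13 lower, with a median log2 fold change of 0.02. Of all tested genes 36.8% were called in that fit, 18.7% higher and 18.1% lower. With the replicate block, 23 were higher and 23 lower, beside 3845 and 3728 of the 14443 tested genes (52.4% called). Some markers of other cell types moved with treatment too. B cell markers summed to 7.64 to 11.8 CPM in control and 6.80 to 9.98 CPM in treated libraries, and markers of CD8 T and NK cells to 12.0 to 16.3 and 13.9 to 18.7 CPM, and both sums overlapped between the groups. Within the B cell list Cd79b was called lower (1.40-fold), and the 7 other genes were not called. In the CD8 T and NK cell list Eomes and Klrk1 were called higher (1.99-fold and 1.62-fold). Cd8a and Cd8b1 were not called (log2 fold changes of -0.18 and 0.16), and Ncr1 and Klra8 had 0 reads. The dendritic cell sum went from between 3.82 and 4.17 CPM to between 7.83 and 11.4 CPM mainly through Zbtb46, which rose 2.48-fold, while the 6 others were too low to test: Flt3 had 38 control and 32 treated reads, and Clec9a, Clec10a, Xcr1, Siglech and Cd209a at most 8 reads per group. The part of these marker changes in the results above was not tested. Erythroid markers stayed at or below 0.565 CPM.

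Levels of different genes were compared as RPKM over the exon union of each gene. In control libraries the order from the highest was Pnpla2 (26.2 ± 1.00 RPKM), Plin3 (11.6 ± 0.976), Lipe (10.6 ± 0.272), Ppard (8.26 ± 0.477), Dgat1 (8.06 ± 0.206), Dgat2 (7.58 ± 0.353), Plin2 (4.14 ± 0.666) and Pparg (0.588 ± 0.0908; SD, n = 4 each). The ranges of Plin3 and Lipe overlapped, as did those of Ppard and Dgat1 and those of Ppard and Dgat2, so the order within those pairs is not settled by these libraries. Pnpla2 exceeded 84.6% of tested genes in control RPKM and Pparg 18.6%.

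In treated libraries Dgat2 stood next to Pnpla2, at 17.9 ± 2.29 RPKM against 30.2 ± 1.15 (SD, n = 4). Lipe came next at 11.5 ± 0.427 RPKM, above Plin3 at 9.74 ± 0.836. The ranges of Plin3, Ppard and Dgat1 overlapped from each to the next. Plin2 at 4.01 ± 0.519 RPKM and Pparg at 0.201 ± 0.0299 were again the lowest. The move of Dgat2 from the sixth place to the second was the main change of order.

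**Figure D5:**
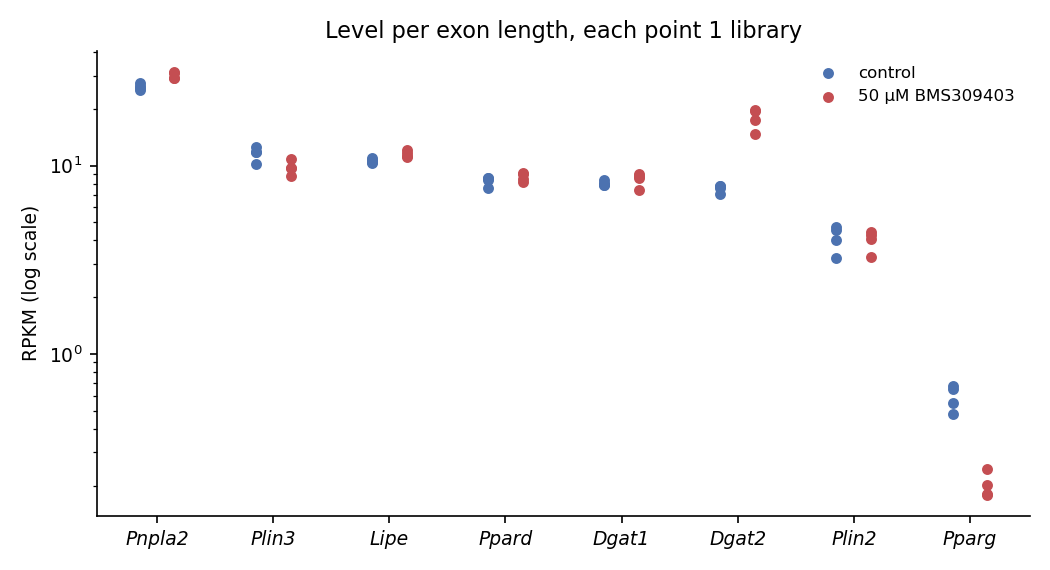
RPKM (vertical log axis) of the 8 genes in each library, ordered by their control mean, with control in blue and treated in red. Dgat2 rises past Plin3, Lipe, Ppard and Dgat1 under treatment, and Pparg lies lowest in both groups.

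Replicate 1 was the lowest library of its group for Ppard, Plin2 and Plin3 in both groups, and for Dgat1 and Dgat2 in the treated group. Leaving out replicate 1 of both groups, an alternative added after the data were seen, kept all 5 calls, with Dgat2 at a log2 fold change of 1.32 and Pparg at -1.43. Among same-numbered libraries the treated library was higher in 4 of 4 pairs for Dgat2, Pnpla2 and Lipe and lower in 4 of 4 for Pparg and Plin3. It was higher in 3 of 4 for Ppard and Dgat1 and in 2 of 4 for Plin2.

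The genes whose log2 CPM followed each member most closely over the 8 libraries were searched among 9543 genes for Pparg and 9542 for each of the others, all averaging at least 5 CPM. Such correlations include the difference between the groups and are descriptions. Dgat2 was followed most closely by Slc3a2, the heavy chain of amino acid transporters (Pearson r = 0.998), and Mreg (0.998), which went from 230.5 to 398 and from 12.5 to 48.5 CPM. Pparg was followed by Ccdc69 (0.994) and Thoc7 (0.990), both of which fell by far less, at log2 fold changes of -0.38 and -0.26. For Pnpla2 the closest were Sh3rf1 (0.989) and Rela (0.988), an NF-κB subunit, and for Lipe Med27 (0.992) and Sh3glb1 (0.989). Plin3 was nearest to Bivm (0.996) and Nkiras2 (0.994), and Plin2 to Tmem205 (0.990) and Slc4a11 (0.966). For Ppard they were Plekha2 (0.971) and Lrrc28 (0.961), and for Dgat1 Cyren (0.958) and Zmat1 (0.956).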

How the data were processed

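The authors deposited 1 file of raw read counts per gene for each of the 8 libraries; the submitters' processing notes name deepTools, STAR, DESeq2 and featureCounts, without versions or roles, and GRCm38. Symbols, positions and exon lengths came from GENCODE M21 (53360 of 53465 IDs matched; the rest held 0.00631% of counts) and promoter sequences from RefSeq on GRCm38.p6 (6 of 8 genes matched). Genes were tested across all genes with edgeR 4.0.16 (R 4.3.3; quasi-likelihood F-test, filterByExpr, TMM, Benjamini-Hochberg over all 14443 tested genes). SE came from the F statistic and 95% intervals from t with 11.8 degrees of freedom. CPM used TMM-adjusted library sizes. The function was run on counts drawn with known changes. Those changes were larger than those of Plin3, Pnpla2 and Lipe, and far fewer genes were changed than were called here. That run therefore does not test such small calls.

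Groups and replicate numbers came from the titles. No label says that replicates are separate mice or cultures; p-values then reflect only how these samples spread, possibly for technical reasons. Libraries of a group differed beyond counting noise (chi-square per degree of freedom 3.08 to 24.2). Across genes, libraries that share a number deviated from their group means with correlations of 0.384, 0.145, 0.106 and 0.264. The correlations of libraries with different numbers were not computed beside these. The main test compared the groups without pairing. A fit with the replicate number as a block was an alternative. Among list genes its values are given only for Fabp5 and Angptl4, whose calls it changed. Other list genes whose calls it changed, such as Ncor1 and Hdac3, enter only the list counts. Alternatives were other normalizations (DESeq2 size factors, upper quartile), no filter, DESeq2 1.42.0, limma-voom 3.58.1, the block, and each library left out. The members and lists were chosen with earlier results of these data known. Named list genes are the up to 4 called genes of each list that changed most, if their mean reached 1 CPM, without predicted genes and pseudogenes; the alike genes are the 2 with the highest correlation. Fabp5, Angptl4, Gpam and Abhd5 were picked for their role. Rxrb, Acadl, Acaa2, Hadhb and Acadm were added after their values were seen. Reads shared with near-identical copies or overlapping genes are uncertain.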

Additional observations from a re-analysis of the deposited data

Results flagged for a closer look

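In 3 of 62 groups of 4 libraries checked, a single library lay apart from the other 3 by more than Dixon's critical share of the range (0.829). About 1 in 20 such groups does so by chance. Lpin1 was at 80.7 CPM in control replicate 1, against 103 to 105 CPM in the other controls. Tbl1xr1 was at 124.2 CPM in treated replicate 3, against 111.5 to 113 CPM in the other treated libraries. Acsl3 was at 76.1 CPM in treated replicate 1, against 72.8 to 73.3 CPM in the others. None of the 8 members was among them, and all 3 genes kept their calls when any library was left out.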

How the results depend on the processing

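Over 15 alternatives for each of the 8 members, 109 of 120 values kept direction and side of the threshold, 8 lost a call and 3 changed sign. The sign changes were all of Plin2, whose log2 fold change lay between -0.14 and 0.04 when a library was left out (0.018 and 0.002 without control replicates 3 and 4, 0.036 without treated replicate 1). Lost calls were those of Plin3 (-0.31 to -0.21 over libraries left out, adjusted p from 0.00195 to 0.0661) and of Lipe (0.10 to 0.14, adjusted p from 0.0355 to 0.116). Without a filter on low counts Lipe had a log2 fold change of 0.13 (adjusted p = 0.0838), where 27128 genes were tested. The replicate block changed no member's call (Plin3 adjusted p = 3.68e-05, Lipe 0.00487), but took the genes of the 5 lists called lower from 13 to 23. For all tested genes, calls ranged from 2078 to 3845 higher and from 2007 to 3728 lower. Leaving out a library moved the log2 ratio differences within 1.13 to 1.20 for Dgat2 to Dgat1 and within -1.74 to -1.53 for Pparg to Ppard. Of 285 values for the 19 other named list genes, 8 lost a call, all of Fitm2 or Prkaca. The cause of these changes was not tested. The low read number of Pparg, at most 67 in a library, limits its precision.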
